A study of Mus musculus with 6 samples.

Results

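Of the 55487 genes in the deposited table, 8 Kruppel-like factor genes are described here: Klf2, Klf3, Klf4, Klf6, Klf7, Klf10, Klf12 and Klf13. They were taken from the table by gene name. RNA was sequenced from LSKs, the bone marrow fraction without lineage markers but with Sca-1 and c-Kit, in which hematopoietic stem cells and early progenitors are found. There were 3 libraries from Tespa1+/+ mice and 3 from Tespa1-/- mice, and per the study's methods the cells were sorted 13 days after total body irradiation with 5 Gy. The Tespa1-/- animals were male B6.129S-Tespa1tm1Smoc mice backcrossed to C57BL/6, the Tespa1+/+ animals are labelled only as wild type, and the methods give male mice of 8 to 10 weeks. Whether the wild-type mice were bred with the Tespa1-/- mice was not stated. Both groups were irradiated, so no value here shows what irradiation itself did. The gene was deleted in the germline and not in blood cells alone. Whether a library came from 1 mouse or from a pool was not stated, so the p-values measure only the spread between these libraries.

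Kruppel-like factors are transcription factors with a conserved set of C2H2 zinc fingers at the carboxyl end, which read GC-rich and CACCC-type sequences, and with divergent amino-terminal parts that recruit coactivators or corepressors. KLF2, KLF4 and KLF6 are known mainly as activators that are also early response genes in many cells, KLF10 and KLF13 act largely through the Sin3 corepressor, and KLF3 and KLF12 repress through CtBP. In blood, KLF2 is best known for keeping lymphocytes quiescent, KLF4 for monocyte differentiation, and the erythroid relative KLF1 for switching on globin genes. All of these are background and not results of the present libraries.

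The promoters of 4 of the genes are shown because 3 of them (Klf2, Klf4 and Klf6) belonged to genes that fell in Tespa1-/- LSKs and the last (Klf13) to a gene that did not pass the test. Each sequence holds the 250 bases before the RefSeq start site on GRCm38.p6, read 5′ to 3′ on the gene's strand. They lie at chr8:72318812-72319061 on the plus strand (Klf2), chr4:55532476-55532725 on the minus strand (Klf4), chr13:5861239-5861488 on the plus strand (Klf6) and chr7:63938916-63939165 on the minus strand (Klf13). Capitals mark the CACCC-type motif GGGTG, the GC box GGGCGG and the cyclic AMP response element core TGACG on either strand, and touching or overlapping matches run together.
Klf2: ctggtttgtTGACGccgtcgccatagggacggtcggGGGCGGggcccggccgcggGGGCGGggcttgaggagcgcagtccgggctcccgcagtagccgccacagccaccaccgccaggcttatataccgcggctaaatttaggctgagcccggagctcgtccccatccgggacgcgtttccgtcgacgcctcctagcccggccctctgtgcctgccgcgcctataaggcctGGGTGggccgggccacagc
Klf4: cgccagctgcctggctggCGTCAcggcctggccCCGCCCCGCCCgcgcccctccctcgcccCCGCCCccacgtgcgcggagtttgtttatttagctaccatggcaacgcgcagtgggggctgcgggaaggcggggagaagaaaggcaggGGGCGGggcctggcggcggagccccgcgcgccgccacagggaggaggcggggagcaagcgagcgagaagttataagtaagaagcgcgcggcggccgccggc
Klf6: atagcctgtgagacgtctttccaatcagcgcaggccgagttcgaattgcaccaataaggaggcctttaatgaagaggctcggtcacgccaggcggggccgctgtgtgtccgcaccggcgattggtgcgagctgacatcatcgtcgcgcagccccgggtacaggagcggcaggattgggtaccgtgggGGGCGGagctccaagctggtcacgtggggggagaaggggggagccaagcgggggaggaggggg
Klf13: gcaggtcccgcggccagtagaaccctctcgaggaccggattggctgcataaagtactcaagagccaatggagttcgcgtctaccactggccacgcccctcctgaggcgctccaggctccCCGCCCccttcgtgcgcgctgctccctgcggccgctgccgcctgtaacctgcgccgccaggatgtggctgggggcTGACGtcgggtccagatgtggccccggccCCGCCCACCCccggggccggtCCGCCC

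The RefSeq promoter table matched 7 of the 8 genes, Klf10 being the exception. Motifs were searched on both strands of windows that add the first bases of the transcript to these sequences. GGGCGG, the GC box that Sp and Kruppel-like factors read, was in 6 of the 7 windows, against 35.7% of all 32851 RefSeq windows. GGGTG was in 5 of 7, against 57.5%. TGACG was in the windows of Klf2, Klf3, Klf4, Klf12 and Klf13, against 20.8% of all windows, and thus in genes that fell as well as in Klf3 and Klf13, which did not pass the test. CACGTG, the E-box that MYC proteins bind, was in the windows of Klf4 and Klf6, against 7.15%. TGACTCA and the CArG box of serum response factor were in none of the 7, against 5.2% and 1.63% of all windows. The upstream sequences were rich in GC, at 71.2% for Klf2, 74% for Klf4, 64.8% for Klf6 and 71.6% for Klf13, where the median of all upstream sequences was 52.4%. A match is a description of the letters, and the shares were not adjusted for this base composition.

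On GRCm38 with GENCODE M21, the 8 genes are spread over 8 chromosomes. Klf2 (ENSMUSG00000055148) is the most compact, at chr8:72319033-72321656 on the plus strand, with 1847 exon bases in 1 annotated transcript. Klf4 (ENSMUSG00000003032) lies at chr4:55527143-55532466 on the minus strand with 3049 exon bases, Klf6 (ENSMUSG00000000078) at chr13:5861482-5870394 on the plus strand with 4391, and Klf10 (ENSMUSG00000037465) at chr15:38291463-38300706 on the minus strand with 4179. The other four are longer. Klf3 (ENSMUSG00000029178) lies at chr5:64803388-64832901 on the plus strand with 11243 exon bases, and Klf7 (ENSMUSG00000025959) at chr1:64029447-64122282 on the minus strand with 8131. Klf12 (ENSMUSG00000072294) lies at chr14:99870632-100284679 on the minus strand with 6985, and Klf13 (ENSMUSG00000052040) at chr7:63886351-63938915 on the minus strand with 7531.

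Total counts ranged from 12856630 to 30576981 per library. For Tespa1 itself 626, 1033 and 533 counts were found in Tespa1+/+ libraries, and 261, 207 and 176 in the Tespa1-/- group. Its level was 34.38 ± 1.62 CPM against 14.59 ± 0.634 (SD, n = 3 each), where CPM are read counts put on 1 common library size by TMM factors. It was thus lower in the libraries labelled Tespa1-/-, with a log2 fold change of -1.23 (SE 0.07, adjusted p = 7.0e-06), and which exons the allele lacks was not stated. Of 9 stem and progenitor markers, 8 were lower by over 1.5-fold in Tespa1-/- LSKs, against 19.2% of all genes tested. They summed to 1220 to 1248 CPM against 658.6 to 676 CPM with Ly6a included. Ly6a, which encodes Sca-1, did not pass the test (-0.32, adjusted p = 0.109). That contrast depended on the length scaling given below. With union exon lengths Ly6a (-0.57, adjusted p = 0.0147), Kit (-0.48) and Cd34 (-0.38) were lower by under 1.5-fold, and the other markers by over 1.5-fold. With lengths implied by FPKM Ly6a did not pass (-0.34, adjusted p = 0.0978). Of 8 neutrophil markers 7 were higher by over 1.5-fold, against 14% of all genes tested. Their sums were 26.16 to 29.61 CPM in Tespa1+/+ and 468.7 to 494.6 CPM in Tespa1-/-. The granule genes of myeloid progenitors summed to 10576 to 11326 against 17100 to 17978 CPM. The part of these cells in the values below was not tested. In bulk RNA, fewer cells of a type and less RNA per cell cannot be told apart.

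Of the 8 genes, 4 fell in Tespa1-/- LSKs (Klf4, Klf10, Klf2 and Klf6), none rose, Klf3, Klf7 and Klf13 did not pass the test, and Klf12 was too sparse to be tested. Calls needed more than a 1.5-fold difference and an adjusted p below 0.05 in edgeR's quasi-likelihood test, adjusted by Benjamini-Hochberg over 15332 genes. By that rule 19.2% of all genes tested were lower and 14% higher. With total counts in place of TMM factors the same 4 were lower and none higher, where 22.9% of all genes were lower and 9.72% higher, and likewise at the study's unadjusted cutoff (19.9% and 14.4%). At any fold the count of the 8 genes was the same, while the shares of all genes rose to 31.8% lower and 31.5% higher. The median log2 fold change was -0.69 over the 7 genes that passed the filter on low counts and -0.00 over all genes tested. In 5 of these 7 every Tespa1-/- library lay below every Tespa1+/+ library, against 34.6% of all genes tested, and in none did every one lie above, against 34.5%.

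**Figure D1:**
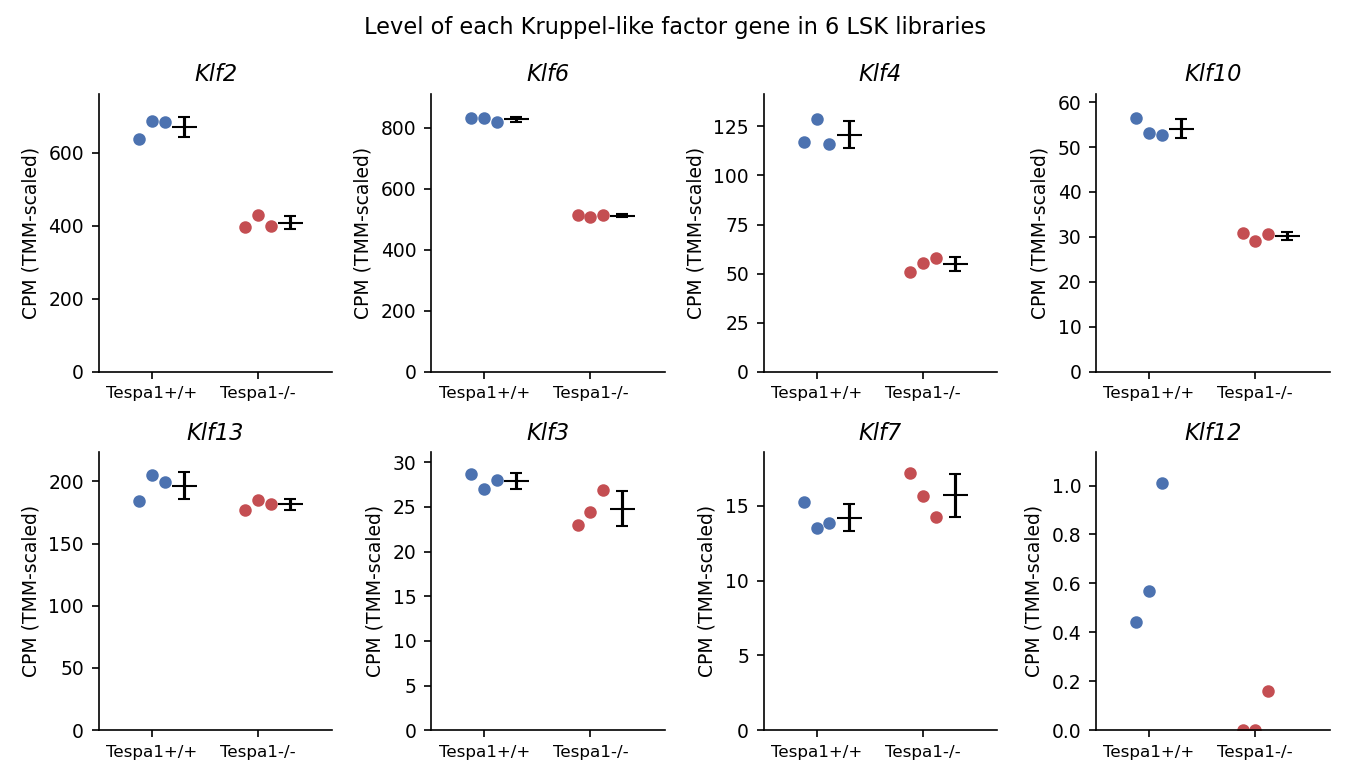
Level of each gene in CPM (TMM-scaled, vertical axis from 0) in the 3 Tespa1+/+ and 3 Tespa1-/- libraries, with 1 point per library and, for all genes but Klf12, the mean and SD beside the points. Klf2, Klf6, Klf4 and Klf10 form separate groups, Klf13 and Klf7 overlap between genotypes, and Klf12 stays near 0 in Tespa1-/-.

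Klf4, a factor that can help return cells to pluripotency and that drives monocyte and epithelial differentiation, had the largest fold change of the 7 genes tested. It was at 117.3, 128.6 and 116.2 CPM in the Tespa1+/+ libraries and at 50.78, 55.45 and 58.06 CPM in the Tespa1-/- libraries. All Tespa1-/- values lay under the lowest Tespa1+/+ value, and the groups were far apart relative to their spread. The means were 120.7 ± 6.86 and 54.77 ± 3.69 CPM (SD, n = 3 each). Tespa1+/+ was 2.21-fold higher, a log2 fold change of -1.14 (SE 0.06, 95% interval -1.29 to -0.99, adjusted p = 7.9e-06).

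Klf10, also called TGF-beta-inducible early gene, encodes a repressor that damps Smad7 and so prolongs TGF-beta signals. Its levels were 56.49, 53.17 and 52.68 CPM in Tespa1+/+ and 30.88, 29.14 and 30.65 CPM in Tespa1-/-. The groups did not overlap, and the Tespa1-/- values differed from each other by little. Its log2 fold change was -0.84 (SE 0.05, 95% interval -0.97 to -0.71, adjusted p = 1.3e-05), a level 1.79-fold higher in Tespa1+/+.

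Klf2, the quiescence factor of lymphocytes and a flow-induced gene of endothelium, was at 637.3, 686.3 and 683.4 CPM in Tespa1+/+ and at 396.7, 428.7 and 399.7 CPM in Tespa1-/-. The highest Tespa1-/- library was far below the lowest Tespa1+/+ library. Means of 669 ± 27.5 and 408.3 ± 17.7 CPM (SD, n = 3 each) gave a log2 fold change of -0.71 (SE 0.04, 95% interval -0.81 to -0.61, adjusted p = 1.0e-05). This was a 1.64-fold difference between the genotypes.

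Klf6, an early response activator first known from growth arrest and liver injury, had the smallest SE of the 7 genes tested. The Tespa1+/+ libraries held 832.4, 832.9 and 818.8 CPM and the Tespa1-/- libraries 514.2, 506.6 and 514.7 CPM. No library crossed between the groups. The log2 fold change was -0.69 (SE 0.02, 95% interval -0.75 to -0.64, adjusted p = 1.2e-06), or 1.62-fold. These intervals come from the fit across all genes and measure the spread between libraries.

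The early response genes that stand beside these 4 also differed between the genotypes. Of 13 immediate early genes, which are induced by handling as well as by growth signals, 12 were tested. All 12 were lower at any fold (8 by over 1.5-fold), against 31.8% of all genes tested (19.2% by over 1.5-fold). Their summed levels were 9990 to 10494 CPM in Tespa1+/+ and 5605 to 5837 CPM in Tespa1-/-. Fos was at 1903 ± 24.2 against 1008 ± 16.3 CPM and Fosb at 2157 ± 58.1 against 637.5 ± 54.8 CPM (SD, n = 3 each). All 4 endothelial markers were lower as well, with sums of 110.7 to 117.3 against 70.97 to 76.74 CPM. Pecam1, which stem cells also express, was at 107.6 CPM in Tespa1+/+ libraries. Per length, the defining markers Cdh5, Kdr and Emcn averaged 0.4927, 0.2283 and 0.3036 FPKM there, against 374.5 FPKM for Klf2 and 28.29 FPKM for Klf4. Whether handling or the mix of cells had a part in the fall of the 4 Klf genes was not tested.

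Klf3, Klf13 and Klf7 did not pass the test. Klf3, a CtBP-dependent repressor with roles in B cells and erythroid cells, was at 28.74, 26.98 and 28.06 CPM in Tespa1+/+ and at 23.01, 24.45 and 26.94 CPM in Tespa1-/-. The groups did not overlap, but the highest Tespa1-/- library came within a small step of the lowest Tespa1+/+ library. The log2 fold change was -0.17 (SE 0.07, 95% interval -0.35 to 0.00, adjusted p = 0.0779). Without the third Tespa1-/- library it was -0.23 with an adjusted p of 0.0312, so that library decided the call at any fold.

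Klf13, a factor that in T cells sustains late Ccl5 transcription, was at 184.2, 205.5 and 199.7 CPM in Tespa1+/+ and at 177.1, 185.4 and 181.9 CPM in Tespa1-/-. The groups overlapped at 1 point, where the lowest Tespa1+/+ library lay under the highest Tespa1-/- library. The log2 fold change was -0.11 (SE 0.05, 95% interval -0.22 to -0.00, adjusted p = 0.0659), and without the first Tespa1+/+ library it was -0.16 (adjusted p = 0.0145). A fall of over 1.5-fold lies outside the intervals of both Klf3 and Klf13.

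Klf7, a widely expressed member with known roles in neurons, was at 15.25, 13.55 and 13.83 CPM in Tespa1+/+ and at 17.2, 15.64 and 14.27 CPM in Tespa1-/-. The groups overlapped. The log2 fold change was 0.15 (SE 0.10, 95% interval -0.08 to 0.37, adjusted p = 0.212). A total of 39.3% of its exon bases (3196 bases) lie opposite exons of the lincRNA Gm26649, and since the strand setting of the counting is not given in the sources used here, reads of both genes cannot be told apart.

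Klf12, a CtBP-binding repressor, was counted 8, 18 and 15 times in the Tespa1+/+ libraries and 0, 0 and 2 times in the Tespa1-/- libraries. Every Tespa1+/+ library lay above every Tespa1-/- library, but the filter on low counts removed the gene, so it had no test among the 15332 genes. Pooled over libraries this was 41 of 62464901 counts against 2 of 45572957, a rate 15 times higher in Tespa1+/+ with an exact 95% interval of 3.88 to 128 that covers counting error only. In a fit without the filter, over 27297 genes, its log2 fold change was -3.64 (SE 0.84, adjusted p = 0.00544), a value that depends on the prior count and is no measure of size at such counts.

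The levels of the genes can be set against each other only per length, for which the deposited FPKM values (counts relative to gene length and library size) were used. In Tespa1+/+ LSKs Klf2 led with 374.5 ± 14.9 FPKM, followed by Klf6 with 157.4 ± 1.57 FPKM, Klf4 with 28.29 ± 1.58 FPKM and Klf13 with 24.13 ± 1.32 FPKM (SD, n = 3 each). Klf10 came next at 8.673 ± 0.343 FPKM, then Klf3 at 1.984 ± 0.0654 FPKM, Klf7 at 1.665 ± 0.109 FPKM and Klf12 at 0.07385 FPKM. No neighbours in this order overlapped in range. Klf2 ranked 140 and Klf6 321 among 25834 genes with a count in Tespa1+/+ libraries.

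In Tespa1-/- LSKs the order changed between Klf4 and Klf13. Klf2 still led with 213.2 ± 9.52 FPKM and Klf6 followed with 90.78 ± 0.702 FPKM, but Klf13 at 20.8 ± 0.51 FPKM now stood above Klf4 at 11.98 ± 0.817 FPKM, with ranges that did not overlap. Klf10 was at 4.518 ± 0.136 FPKM. Klf7 at 1.716 ± 0.159 FPKM and Klf3 at 1.643 ± 0.132 FPKM overlapped and cannot be ordered, and their order depended on the length used: with union exon lengths Klf3 stayed above Klf7. Klf12 came last in both genotypes. The ranks of Klf2 and Klf6 were 324 and 675 among 24036 genes.

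**Figure D2:**
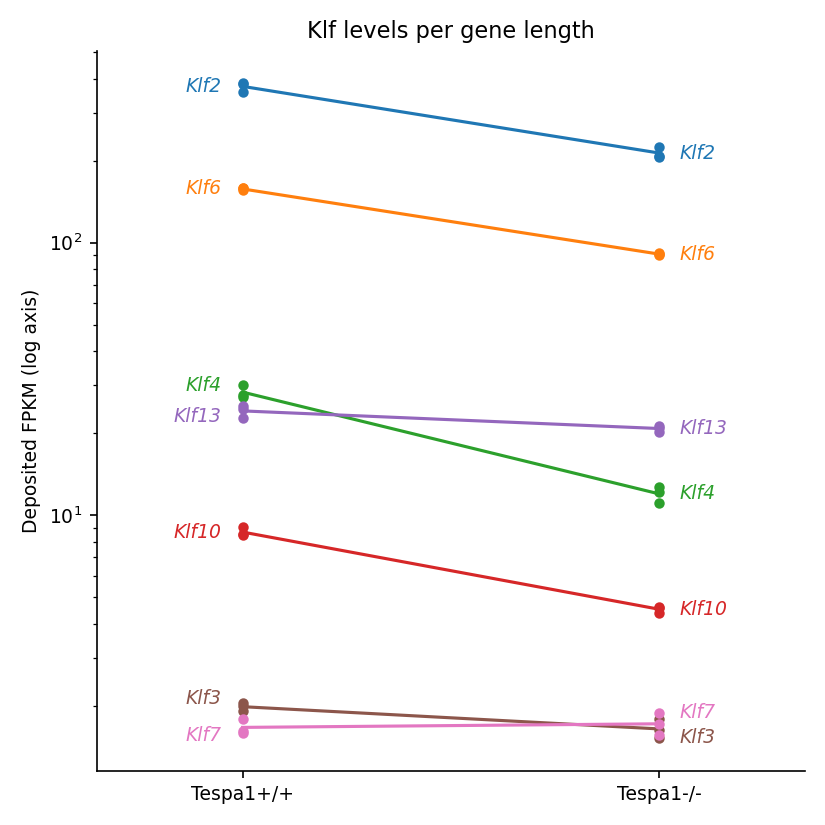
Deposited FPKM (log axis) of all the genes except Klf12 in Tespa1+/+ and Tespa1-/- LSKs, with 1 point per library and a line between the group means. Klf2 and Klf6 keep the top places, and the lines of Klf4 and Klf13 cross, from 28.29 and 24.13 FPKM in Tespa1+/+ to 11.98 and 20.8 FPKM in Tespa1-/-.

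The FPKM of the 8 genes together came to 578.9, 609.3 and 601.9 in Tespa1+/+ against 337.3, 355.3 and 341.5 in Tespa1-/- libraries. The share of each gene in this sum does not depend on how libraries are scaled to each other, but it still carries the trend with gene length given below. Klf2 took 61.7, 63 and 63.5% of it in Tespa1+/+ and 61.3, 63.1 and 61.1% in Tespa1-/-, and Klf6 took 26.4% on average in both genotypes. The shares of both overlapped between the groups. All shares rest on the deposited lengths. With union exon lengths Klf2 stayed at 374.5 FPKM in Tespa1+/+, but Klf6 was at 195 and Klf4 at 40.92 FPKM. The rest of the 8 genes were higher too, so the Klf2 share would be smaller with those lengths. The log2 ratio of Klf2 to Klf6 counts was -0.31 ± 0.07 in Tespa1+/+ and -0.33 ± 0.07 in Tespa1-/- (SD, n = 3 each). After the length correction with union exon lengths their log2 fold changes were less alike, at -0.85 for Klf2 and -0.53 for Klf6.

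Klf4 lost share, from 4.52 to 4.94% in Tespa1+/+ to 3.29 to 3.72% in Tespa1-/-, and Klf13 gained it, from 3.91 to 4.14% to 5.99 to 6.11%. Klf3 went from an average of 0.333% to 0.477% and Klf7 from 0.28% to 0.498%, again without overlap. Klf10 went from 1.46% to 1.31%, with ranges of 1.4 to 1.57% and 1.23 to 1.37%. In counts, the log2 ratio of Klf4 to Klf2 was lower by 0.43 in Tespa1-/- libraries (-2.47 ± 0.07 against -2.90 ± 0.10), and that of Klf13 to Klf2 was higher by 0.60 (-1.77 ± 0.03 against -1.17 ± 0.04). Thus Klf4 differed more between genotypes than Klf2 within the same libraries, and Klf13 less. These ratios were not tested, and they too carry the length trend. After the same length correction Klf4 was at -1.13, Klf2 at -0.85 and Klf13 at 0.30, the same order. Klf10 was at -0.70 and thus fell by less than Klf2, so its lower share depended on the scaling for length.

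Gene length moved with the fold changes of all genes and therefore touched the longer members. With the genes split by exon length into 10 groups of like size, the median change was 0.54 (log2) among the shortest and -0.56 among the longest. Klf2 (-0.71) lay in a length group with a median of 0.29, Klf4 (-1.14) in one with 0.07, and Klf6 (-0.69) and Klf10 (-0.84) in one with -0.01, and all 4 were under the lower quartile of their length group. Klf7 (0.15) and Klf13 (-0.11) lay in a length group with a median of -0.35, and Klf3 (-0.17) in the longest group.

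When this trend was removed with union exon lengths, 13.5% of 15320 genes were lower by over 1.5-fold and 11.7% higher, and at any fold 22.3% were lower and 36.5% higher. The correction also moved the median of all genes to 0.11, so changes are also given relative to that shift. The falls of Klf4 (-1.13, adjusted p = 1.2e-05), Klf2 (-0.85, 7.6e-06) and Klf10 (-0.70, 4.7e-05) remained over 1.5-fold. Klf6 still fell (-0.53, adjusted p = 4.8e-06), but by under 1.5-fold, and by more than that relative to the shift (-0.64). Klf3 changed sign and was higher (0.43, adjusted p = 0.00211), as was Klf13 (0.30, adjusted p = 0.00146), and Klf7 was higher by over 1.5-fold (0.60, adjusted p = 0.00136). Relative to the shift, Klf3 was at 0.32, Klf13 at 0.19 and Klf7 at 0.49, the last then under 1.5-fold. With the lengths implied by the FPKM values Klf13 was at 0.13 and only 0.03 above the shift. The sign of Klf3 and the tests of Klf3, Klf7 and Klf13 therefore depended on this scaling, whereas the direction of the 4 genes that fell did not. Whether the trend came from RNA quality, from library making or from the cells was not tested.

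**Figure D3:**
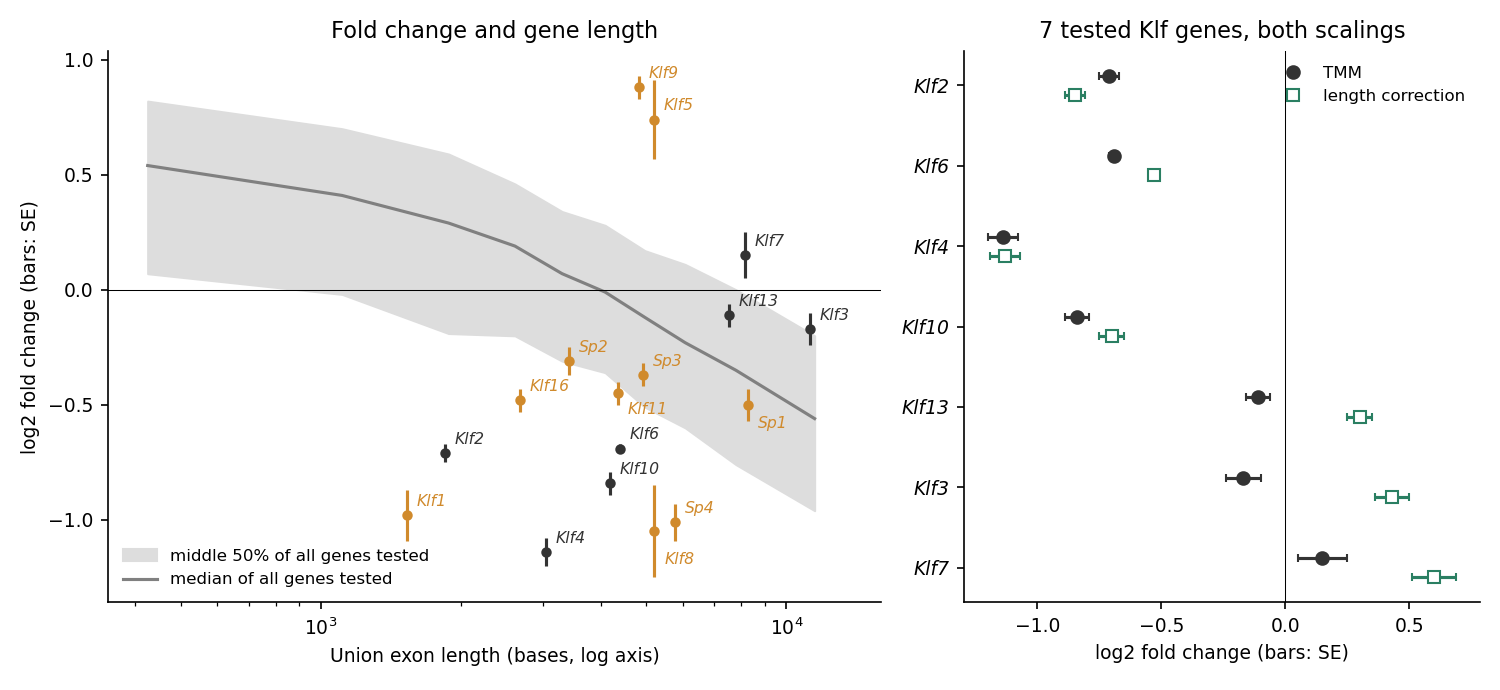
Left, log2 fold change (Tespa1-/- over Tespa1+/+, bars show SE) against union exon length in bases (log axis) for the tested Klf and Sp genes, over the median and the quartile band of all genes tested. Right, the 7 tested genes with TMM scaling (filled circles) and after the length correction (open squares): Klf2, Klf4, Klf6 and Klf10 stay below 0, whereas Klf3 moves from -0.17 to 0.43 and Klf13 from -0.11 to 0.30, beside a shift of all genes of 0.11.

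Among the 18 other Klf and Sp genes, which share the zinc fingers, 10 were tested, of which 3 were lower (Klf8, Sp4 and Klf1) and 2 higher (Klf9 and Klf5) by over 1.5-fold. At any fold 8 were lower and 2 higher. Among all genes tested 19.2% were lower and 14% higher by over 1.5-fold, and 31.8% and 31.5% at any fold. Klf9, a Sin3-binding repressor like Klf13 that responds to glucocorticoid and thyroid hormone, differed in direction from the 4 genes that fell: it was at 39.04 ± 0.657 CPM in Tespa1+/+ and at 71.99 ± 2.57 CPM in Tespa1-/- (SD, n = 3 each), a log2 fold change of 0.88 (SE 0.05, adjusted p = 5.6e-06). The log2 ratio of Klf9 to Klf13 counts went from -2.33 ± 0.11 to -1.33 ± 0.07. Klf5, which promotes proliferation in epithelia, was low at 2.205 and 3.641 CPM and rose by 0.74 (SE 0.17, adjusted p = 0.00788).

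Klf1, the erythroid factor, fell from 6.27 to 3.176 CPM (-0.98, adjusted p = 1.6e-04), and of the 7 erythroid markers 6 were tested, with 3 lower (Gata1, Epor and Car1, at -0.84, -0.90 and -0.97) and 3 higher (Tfrc, Hbb-bs and Hba-a1, at 0.81, 1.63 and 2.11). Their sum of 231 to 254.1 CPM in Tespa1+/+ and 375.9 to 404.5 CPM in Tespa1-/- was carried by Tfrc. Klf8, which KLF3 represses in erythroid cells, fell from 8.996 ± 0.88 to 4.31 ± 1.27 CPM (-1.05, SE 0.20, adjusted p = 0.00279), and Sp4 fell from 19.83 to 9.799 CPM (-1.01, adjusted p = 4.6e-05). Klf11, the nearest relative of Klf10, fell by less (-0.45, adjusted p = 1.5e-04), and the log2 ratio of Klf10 to Klf11 counts went from 0.06 ± 0.05 to -0.34 ± 0.08. Klf16 (-0.48), Sp1 (-0.50), Sp3 (-0.37) and Sp2 (-0.31) also passed the test with folds under 1.5. Sp1, with long exons, was at -0.05 (adjusted p = 0.598) after the length correction. Klf14, Klf15, Klf17, Sp5, Sp6, Sp7, Sp8 and Sp9 were too sparse to be tested, and Klf17, Sp5 and Sp8 had no count in any library.

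**Figure D4:**
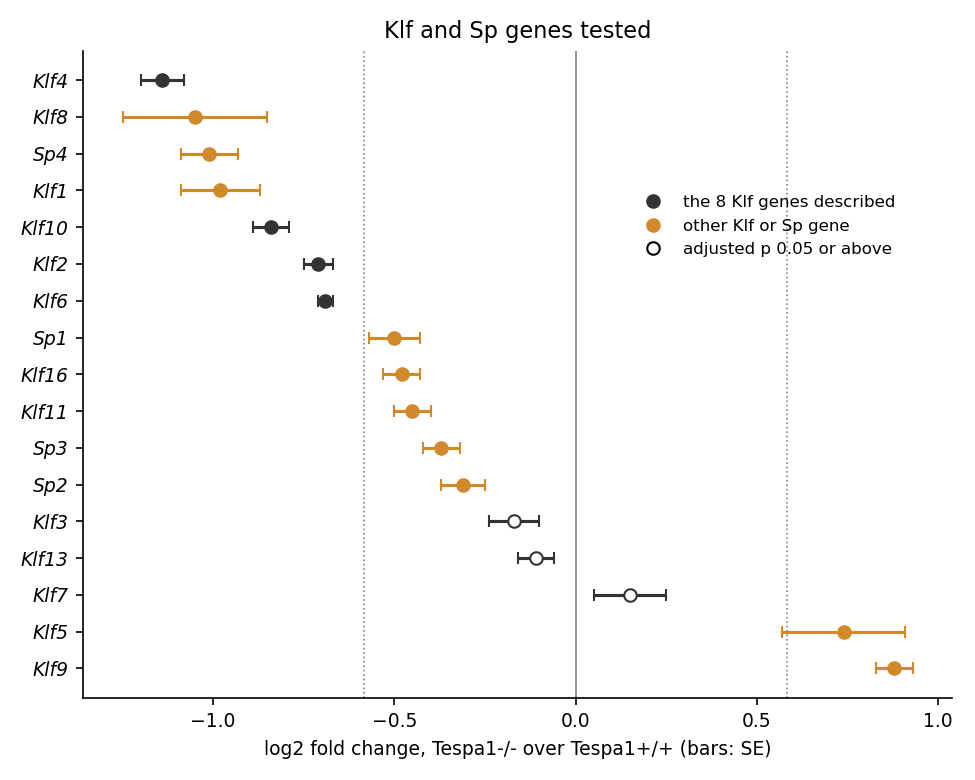
Log2 fold change (Tespa1-/- over Tespa1+/+, horizontal axis, bars show SE) of the 17 tested Klf and Sp genes, with open circles for an adjusted p of 0.05 or above and dotted lines at a fold of 1.5. Klf4 lies lowest at -1.14, Klf5 and Klf9 lie above 0 at 0.74 and 0.88, and Klf3, Klf13 and Klf7 sit near 0.

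Of the 11 cofactors that Kruppel-like factors recruit, 3 were lower and none higher by over 1.5-fold (4 and 2 at any fold), with a median of 0.01. The shares of all genes tested were 19.2% lower and 14% higher (31.8% and 31.5% at any fold). The 3 lower cofactors were the acetyltransferases of the activating members: Ep300 (-1.10, adjusted p = 1.3e-06), Crebbp (-0.73, adjusted p = 3.0e-06) and Kat2b (-0.67, adjusted p = 5.5e-05). All 3 were under 1.5-fold after the length correction, at -0.39, -0.04 and -0.47. On the repressor side, Ctbp1 (0.01) and Ctbp2 (0.02), the partners of KLF3 and KLF12, and Hdac1 (0.13) and Hdac2 (-0.01) did not pass the test. Sin3b (0.34, adjusted p = 1.1e-04) and Hdac3 (0.19, adjusted p = 0.00323) rose and Sin3a (-0.26, adjusted p = 6.7e-04) fell by under 1.5-fold, and the KLF3 partner Fhl3 was at 0.11 (adjusted p = 0.384). After the length correction Ctbp1 (0.18, adjusted p = 0.00474), Ctbp2 (0.34, adjusted p = 0.00526), Hdac1 (0.18, adjusted p = 0.0148) and Hdac3 (0.31, adjusted p = 3.1e-04) were higher by under 1.5-fold and Sin3b (0.74, adjusted p = 5.9e-06) by over 1.5-fold, beside the shift of 0.11 of all genes, while Hdac2, Sin3a and Fhl3 did not pass.

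Upstream of Klf2 and Klf4 stands the MEK5-ERK5 cascade, in which MEKK2 and MEKK3 feed the kinases MEK5 and ERK5 and these activate MEF2 factors. Of these genes together with Foxo1, 8 in all, 4 were lower and none higher by over 1.5-fold (5 and none at any fold), with a median of -0.55. For all genes tested the shares were 19.2% lower and 14% higher (31.8% and 31.5% at any fold). The transcription factors Mef2c (-1.41, SE 0.12, adjusted p = 6.0e-05) and Mef2d (-0.92, SE 0.03, adjusted p = 1.5e-06) fell, whereas the kinases MEK5 (Map2k5, 0.01) and ERK5 (Mapk7, -0.04) and Mef2a (-0.11) did not pass the test. Map3k2 fell by 0.87 and Map3k3 by 0.43 on the log2 scale. Foxo1, which binds the Klf2 promoter in T cells, fell by 0.68 (adjusted p = 0.00249). After the length correction Mef2c (-0.67) and Mef2d (-0.62) stayed over 1.5-fold, Map3k2 (-0.18, adjusted p = 0.0536) and Foxo1 (-0.20, adjusted p = 0.203) did not pass, and Mef2a rose (0.61, adjusted p = 0.0384, or 0.51 relative to the shift).

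Of the 5 ubiquitin ligases described for Kruppel-like factor proteins, 2 were lower by over 1.5-fold (4 at any fold) and none higher, with a median of -0.50. Over all genes tested 19.2% were lower and 14% higher (31.8% and 31.5% at any fold). Smurf1 (-1.16, adjusted p = 8.3e-04) and Wwp1 (-0.86, adjusted p = 5.6e-04), both described for KLF2, fell furthest. After the length correction Smurf1 was at -0.83 (adjusted p = 0.00465) and Wwp1 at -0.52 (adjusted p = 0.00703), under 1.5-fold, or -0.63 relative to the shift. Itch (-0.48, adjusted p = 1.2e-04) and Fbxw7 (-0.50, adjusted p = 0.00156) fell by less and were at 0.05 and -0.12 after the length correction, and Siah1a was at 0.07 (adjusted p = 0.516). Protein levels were not measured.

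Among 11 genes described as targets of these factors, 10 were tested, of which 6 were lower and 1 higher by over 1.5-fold (8 and 1 at any fold), with a median of -0.71. The same rules called 19.2% of all genes tested lower and 14% higher (31.8% and 31.5% at any fold). S1pr1, the egress receptor that KLF2 activates in T cells, was at 8.966 ± 0.426 CPM in Tespa1+/+ and 3.633 ± 0.799 CPM in Tespa1-/- (-1.30, SE 0.15, adjusted p = 2.7e-04). Thbd, the thrombomodulin gene that KLF2 and KLF4 activate in endothelium, fell by 1.20 (adjusted p = 1.1e-04), while Nos3, another endothelial target, had 3 to 15 counts per library and was not tested.

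Eng, an auxiliary TGF-beta receptor that KLF6 activates, fell from 76 ± 4.41 to 38.07 ± 1.79 CPM (95% interval of the log2 fold change -1.14 to -0.85, adjusted p = 1.1e-05). Smad7, which KLF10 represses, also fell (-0.82, SE 0.07, adjusted p = 6.6e-05). Ccl5, the late T-cell target of KLF13, had only 13 to 63 counts per library and was near the threshold (-0.60, adjusted p = 0.049). After the length correction Ccl5 was at -0.92 (adjusted p = 0.01) and Smad7 at -0.64 (adjusted p = 2.5e-04). Among genes that KLF3 represses, Klf8 fell as given above, while Lgals3 rose from 5.026 ± 1.08 to 12.58 ± 0.707 CPM (1.33, SE 0.16, adjusted p = 2.5e-04). Lgals3, the galectin-3 gene, is also abundant in myeloid cells. Of 6 monocyte and macrophage markers Ly6c2 was higher (0.88) and Csf1r lower (-0.65) by over 1.5-fold, Cd68 was higher by less (0.24), and Adgre1, Ccr2 and Fcgr1 did not pass the test. Their sum went from 496.2 to 537.5 CPM in Tespa1+/+ to 636.6 to 723.2 CPM in Tespa1-/-, a rise carried by Ly6c2. Cdkn1a, the cell cycle inhibitor that KLF4 and KLF6 activate, varied widely between libraries, from 372 to 1286 counts in Tespa1-/-, and did not pass the test (-0.36, SE 0.34, adjusted p = 0.396). The members of the list thus included both genes that these factors activate and genes that they repress, and falls were counted in both.

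The genes most like Klf2 over the 6 libraries, by the root-mean-square difference of mean-centred log2 CPM, were Prr12 (0.020), Heca (0.024) and Hspa1b (0.024). A total of 472 of 10814 compared genes, or 4.36%, lay within 0.1 of Klf2, so its pattern was a common one. Hspa1b has a near-identical neighbour, and its counts are uncertain where reads fit both. For Klf4 the nearest were Cbx2 (0.040), Erg (0.042), which encodes an ETS factor of stem cells and endothelium, and Ttll4 (0.043), and 97 genes, or 0.897%, lay within 0.1. Erg was at 91.61, 102.8 and 90.99 CPM in Tespa1+/+ and 41.04, 46.29 and 48.95 CPM in Tespa1-/-. Its second Tespa1+/+ library was the highest, as for Klf4, but Erg was picked for its likeness over these same libraries.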

How the data were processed

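Poly-A RNA of 6 LSK libraries was sequenced as stranded paired-end reads. The authors deposited 1 table with raw read counts per gene and FPKM values, which equal the count divided by the library's count total and by 1 length per gene. The submitters' processing notes name CASAVA 1.8, HISAT2, StringTie, edgeR and GRCm38, and the counter, annotation and strand setting are not given in the sources used here. The FPKM values carry no TMM factors.

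Deposited counts were filtered with filterByExpr, scaled by TMM, and a quasi-likelihood model without covariates was fitted in edgeR 4.0.16 (R 4.3.3) over 15332 genes with Benjamini-Hochberg adjustment. Reference DNA and coordinates came from RefSeq and GENCODE M21, in which 54870 of 55487 genes had identical coordinates. For the length correction, each library's deviation from the mean log2 CPM was fitted on exon length (loess, span 0.5) and used as an offset. Alternatives were RLE factors, total counts, 2 other count filters, DESeq2 1.42.0, glmTreat, the study's cutoff on unadjusted p, a replicate block, leaving out each library, limma-trend 3.58.1 on log2(FPKM + 1) and log2(FPKM + 0.1), and 3 length corrections. Depth of 12856630 counts or more per library left counting error small for Klf2 and Klf6, with 4956 counts or more in each library. Klf10 had 380 to 1679 counts, Klf3 334 to 852 and Klf7 177 to 428, so counting error can make up part of their spread. Klf12 had at most 18. Scripts were tested on simulated data.

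Named genes were the 8 members, the listed family, pathway and marker genes, Tespa1, and the 3 genes most like Klf2 and Klf4 among those with a mean count of at least 100. The members and lists were chosen with earlier results of these data known, and the lists were written from general knowledge. Fos, Fosb and the endothelial markers were singled out after their values were seen. Protein sequences were not analysed here. The values of 1 gene counted in the target list are not reported here.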

Additional observations from a re-analysis of the deposited data

How the results depend on the processing

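Klf2, Klf4, Klf6 and Klf10 kept their direction and an adjusted p under 0.05 in all 18 alternatives, with log2 fold changes of -0.85 to -0.68, -1.24 to -1.08, -0.79 to -0.53 and -0.94 to -0.70. With union exon lengths, lengths implied by FPKM, and union lengths with a replicate block, Klf3 was at 0.43, 0.32 and 0.42 and Klf13 at 0.30, 0.13 and 0.30, all of the opposite sign, beside a shift of the median of all genes to 0.11, 0.11 and 0.10. Relative to it Klf3 was at 0.32, 0.21 and 0.32 and Klf13 at 0.19, 0.03 and 0.19, so the value of 0.13 for Klf13 was about the shift itself. The number of the 8 genes that were higher was 1 (Klf7) under both corrections with union lengths. In the same order, lower cofactors numbered 0, 0 and 0 and higher ones 1, 1 and 1, and lower upstream genes 2, 1 and 2 and higher ones 1, 1 and 1. Lower ligases numbered 1 under both corrections with union lengths. With total counts 5 other Klf and Sp genes were lower, and with glmTreat and both limma-trend fits 1 was higher. Total counts shifted the median log2 fold change of all genes to -0.10 and the higher share of calls from 42.1% to 29.8%. Klf3 (-0.27) and Klf13 (-0.22) passed the threshold there, but these values include that shift. Limma-trend, whose FPKM carry no factors, also put both genes past the threshold, and so did the filter of at least 10 counts in every library for Klf13 (-0.14, adjusted p = 0.0328). All causes other than these constructions were not tested.

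Same-numbered libraries of the genotypes deviated together by correlations of -0.073, -0.078 and 0.014, so the numbers gave no pairing. Under a replicate block, 2871 genes were lower and 2101 higher, against 2951 and 2148 without it, the same 4 members were lower, and Klf13 (-0.11) had an adjusted p of 0.0377. Klf12 passed the filter on low counts only when that filter was dropped or when Tespa1-/- replicate 2 or 3 was left out. The lower genes were then 5 of 8. Among all genes, 3298 of 27297 were lower without the filter, and 2823 and 2885 without Tespa1-/- replicate 2 or 3. In the fits without these libraries Klf12 could pass the filter only through its Tespa1+/+ counts, so its call there adds no support.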
